A study of Mus musculus with 24 samples.

Results

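Cytochrome P450 genes of families 1 to 4 were followed in liver and whole brain of mice that ate diets with different amounts of selenium. A gene was a member if its symbol named one of these families, its mean over the 12 liver or the 12 brain libraries was at least 5 normalized reads, and it was not a pseudogene. Of 67 symbols of these families in the table, 61 of all 21894 genes met the rule, with 3 in family 1, 37 in family 2, 4 in family 3 and 17 in family 4, spread over 20 subfamilies. In liver 57 members reached the minimum and in brain 21, with 17 in both. Nearest outside the minimum stood Cyp2c66, with a mean of 3.5 in liver, and Cyp2j8. Nearest inside stood Cyp2r1 in brain, with 5.65, and Cyp2b9 in liver, with 6.03. The pseudogenes Cyp2c53-ps, Cyp2d37-ps, Cyp2d41-ps and Cyp4f41-ps were left out, although their liver means were 224, 1249, 45.4 and 5.09. The annotation calls 60 members protein-coding, and Cyp4x1os, which the symbol rule also took, is an antisense RNA that overlaps Cyp4x1.

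The animals were male C57BL/6J mice, an inbred strain, that had eaten normal chow and were 8 weeks old when they were moved for 5 weeks to a diet to which no selenium (0 ppm) or selenium at 0.1, at 0.4 or at 2.25 ppm was added. All 4 groups were of the same strain and sex and carried no engineered allele, and each gave 3 libraries per tissue, 24 in all, called a, b and c in the order of their columns. The labels do not say whether libraries of a group came from separate animals, so the p-values speak only of the spread among libraries, which may be of technical origin. Whole organs were sequenced, so fewer cells of a type and less RNA per cell cannot be told apart. Reads on genes numbered 11.5 to 18.4 M per liver library and 12.9 to 17.8 M per brain library.

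Cytochromes P450 are heme enzymes of the endoplasmic reticulum that insert an oxygen atom into drugs, steroids, bile acids and fatty acids, with electrons passed on by the reductase Por or by cytochrome b5. Many liver genes of these families are switched by receptors that sense foreign or dietary compounds: the aryl hydrocarbon receptor AHR for family 1, CAR and PXR for the Cyp2b, Cyp2c and Cyp3a genes, and the fatty acid sensor PPAR alpha for Cyp4a. Liver holds most of the body's P450 enzymes, whereas brain holds a smaller set that works mainly on fatty acids and on arachidonic acid and its products.

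Promoters are shown for 5 members on which the results below turn: a near-identical pair with very different levels (Cyp2a5 and Cyp2a4), the member with the largest called decrease against the mean of the selenium-supplemented diets (Cyp2b10), the most abundant member (Cyp2e1) and the member called higher at 2.25 minus 0.1 ppm (Cyp2c70). Each is the 250 bases before the RefSeq start, from 5′ to 3′ on the gene's strand in build GRCm38.p6, at chr7:26835089-26835338, chr7:26306942-26307191, chr7:25897408-25897657 and chr7:140763569-140763818 on the plus strand and at chr19:40187287-40187536 on the minus strand. Capitals mark TATAAA, the TATA box, TTGCNNAA, a motif of the C/EBP factors of liver, and CAAAGTCCA, a motif of the liver factor HNF4, on either strand.
Cyp2a5: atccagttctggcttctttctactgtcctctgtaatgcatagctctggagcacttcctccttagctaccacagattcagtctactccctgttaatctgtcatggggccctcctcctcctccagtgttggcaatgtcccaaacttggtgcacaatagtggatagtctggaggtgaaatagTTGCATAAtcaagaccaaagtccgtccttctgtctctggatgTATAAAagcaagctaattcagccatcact
Cyp2a4: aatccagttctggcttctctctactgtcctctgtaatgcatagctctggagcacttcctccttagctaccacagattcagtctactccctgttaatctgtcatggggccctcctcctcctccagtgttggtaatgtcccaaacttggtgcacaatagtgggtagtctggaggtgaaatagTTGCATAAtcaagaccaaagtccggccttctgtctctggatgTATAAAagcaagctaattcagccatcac
Cyp2b10: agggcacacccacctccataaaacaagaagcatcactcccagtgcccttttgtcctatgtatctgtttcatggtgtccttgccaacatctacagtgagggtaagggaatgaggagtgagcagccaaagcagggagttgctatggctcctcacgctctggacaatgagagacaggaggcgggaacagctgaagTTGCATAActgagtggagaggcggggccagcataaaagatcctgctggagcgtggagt
Cyp2e1: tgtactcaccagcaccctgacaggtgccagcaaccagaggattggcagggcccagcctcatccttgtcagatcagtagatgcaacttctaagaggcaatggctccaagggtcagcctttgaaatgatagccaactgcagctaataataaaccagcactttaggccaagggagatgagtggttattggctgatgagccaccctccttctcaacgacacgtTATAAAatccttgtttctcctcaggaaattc
Cyp2c70: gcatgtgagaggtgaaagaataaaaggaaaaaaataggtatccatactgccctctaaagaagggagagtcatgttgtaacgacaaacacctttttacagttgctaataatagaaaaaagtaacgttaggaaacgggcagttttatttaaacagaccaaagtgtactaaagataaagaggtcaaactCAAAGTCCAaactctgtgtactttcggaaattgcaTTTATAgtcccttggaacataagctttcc
The Cyp2a5 and Cyp2a4 stretches, shifted by 1 base, matched at 98.39% of 249 bases. The 4 differences, written as the Cyp2a5 base, its position from 1 at the 5′ end of the Cyp2a5 stretch, and the Cyp2a4 base, were T18C, C130T, A160G and T204G, none of them inside a motif in capitals. The octamer TTGCATAA stood in all of Cyp2a5, Cyp2a4 and Cyp2b10, and its motif was held by 9.56% of all 32851 promoter stretches and by 10 of the 48 members with one. TATAAA stood in 12.4% of all stretches and in 20 of the 48 members, and CAAAGTCCA in 0.384% and in 6. The clock motifs CACGTG and TTANGTAA, searched on both strands too, stood in 6.02% and 2.06% of all stretches, and in 2 members and 1 member. CACGTG and TTANGTAA were not found in these 5 windows. The motifs searched do not overlap each other in these windows, and a match is a description of letters, not a binding site.

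Before the members' results, 3 facts about the libraries bear on them. The diets were checked by Gpx1, a selenium-dependent peroxidase, which had 9649, 11640.1 and 10201 normalized reads in the 0 ppm livers, against 25798 to 29805 in the 9 livers of the other diets. Clock transcripts differed between the liver groups: Nr1d1, a clock repressor, ran at 1130.0 to 2186 at 0 ppm, 494 to 874 at 0.1 ppm, 365 to 729 at 0.4 ppm and 141 to 165 at 2.25 ppm. Liver library c of 0 ppm stood apart from a and b, with 1672 normalized reads of the clock output factor Dbp, against 428 and 463. The labels give no time of day, and the part of these differences in the results was not tested. In brain, albumin transcripts, which mark liver RNA, were at 0 to 10.6 normalized reads in 5 libraries (0.4 ppm b and c and all of 2.25 ppm) and at 43.9 to 71.4 in the other 7.

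The members made up 3.13% of all normalized reads in liver and 0.0215% in brain. Levels below are normalized reads per kilobase of the longest annotated transcript wherever genes are set beside each other, and normalized reads per gene elsewhere. Per kilobase, Cyp2e1, which oxidizes ethanol and activates acetaminophen, averaged 78054 in liver, Cyp3a11, the main drug-oxidizing enzyme of family 3, 33552, Cyp2c29, an arachidonic acid epoxygenase, 26128, and the male-biased Cyp2d9 19403. Cyp2e1, Cyp3a11 and Cyp2c29 held 50.7% of all members' reads in liver. At the other end 18 members had a mean under 100 normalized reads per gene. In brain the order was a different one: Cyp2j9 averaged 135 per kilobase, Cyp2d22 121, Cyp4f13, of a subfamily that shortens the action of leukotrienes, 77, and Cyp2j6 71.5. Every liver library stood above every brain library for 50 members, and every brain library above every liver library for 7, namely Cyp1b1, Cyp2j12, Cyp2j9, Cyp2s1, Cyp2t4, Cyp4x1 and Cyp4x1os. Cyp4x1, a P450 known from brain, and Cyp4x1os were at 0 in all 12 livers.

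**Figure D1:**
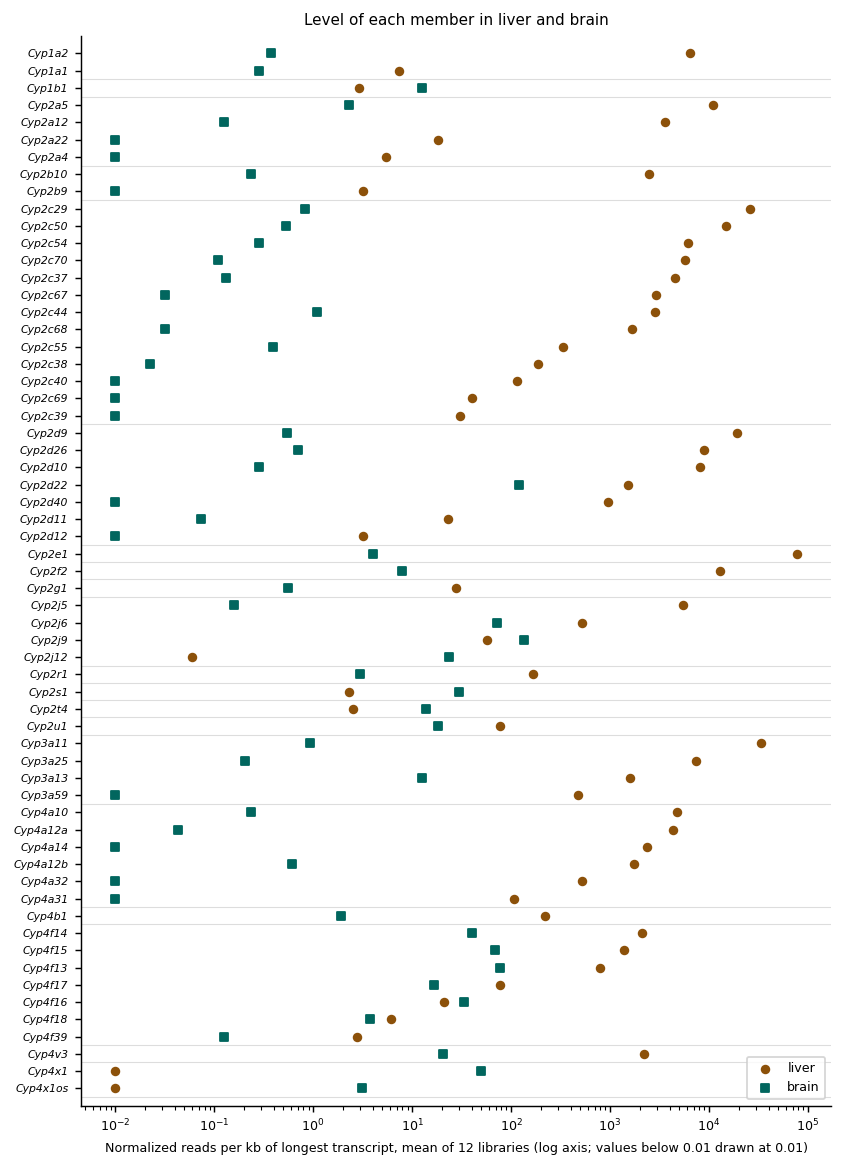
Level of each of the 61 members in liver (circles) and brain (squares), as normalized reads per kilobase of the longest transcript, mean of 12 libraries, on a log axis, with members grouped by subfamily. Most circles lie far to the right of their squares, and Cyp1b1, Cyp2j9, Cyp2j12, Cyp2s1, Cyp2t4, Cyp4f16, Cyp4x1 and Cyp4x1os are the members with the square further right.

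The first comparison asked which members differed in the livers of mice without added selenium. At 0 ppm, Cyp2b10, Cyp2c39, Cyp2a5, Cyp2d22, Cyp4a10, Cyp4f15 and Cyp4v3 fell relative to the mean of the 0.1, 0.4 and 2.25 ppm diets, and Cyp2u1 and Cyp2r1 rose. These were 9 of 58 members tested, 2 higher and 7 lower, where 6.61% of all 18945 genes were called, 2.2% higher and 4.41% lower. All 0 ppm livers stood above the other 9 for 2 members and below them for 3, which held for 1.64% and 3.49% of all genes. The median log2 change was -0.15 over the members and -0.00014 over all genes tested. Against the 0.1 ppm livers alone, 12 members were called, 3 higher and 9 lower, where 6.13% of all genes were called, 1.82% higher and 4.31% lower. Cyp2c37, Cyp2e1, Cyp2c70 and Cyp4f39 were called in that comparison and not in the wider one. An F-test for any difference among the 4 diets called 10 members, where 10.9% of all genes were called. All of these tests are by limma, with Benjamini-Hochberg adjusted p-values taken over every gene tested in the tissue. The count against the mean of the other diets was 3 without 0 ppm library a and 14 without 0 ppm library b, and 9 with all libraries. Over all genes, 535 of 18820 were called without library a, 920 of 18831 without library b and 1252 of 18945 with all. The count against 0.1 ppm was 4 without 0 ppm library a, 21 without 0 ppm library b, 4 without 0.1 ppm library b and 3 without 0.1 ppm library c. Over all genes, 556 of 18820 were called against 0.1 ppm without 0 ppm library a and 1077 of 18831 without 0 ppm library b. The calls over all genes without 0.1 ppm library b or c are not given here.

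**Figure D2:**
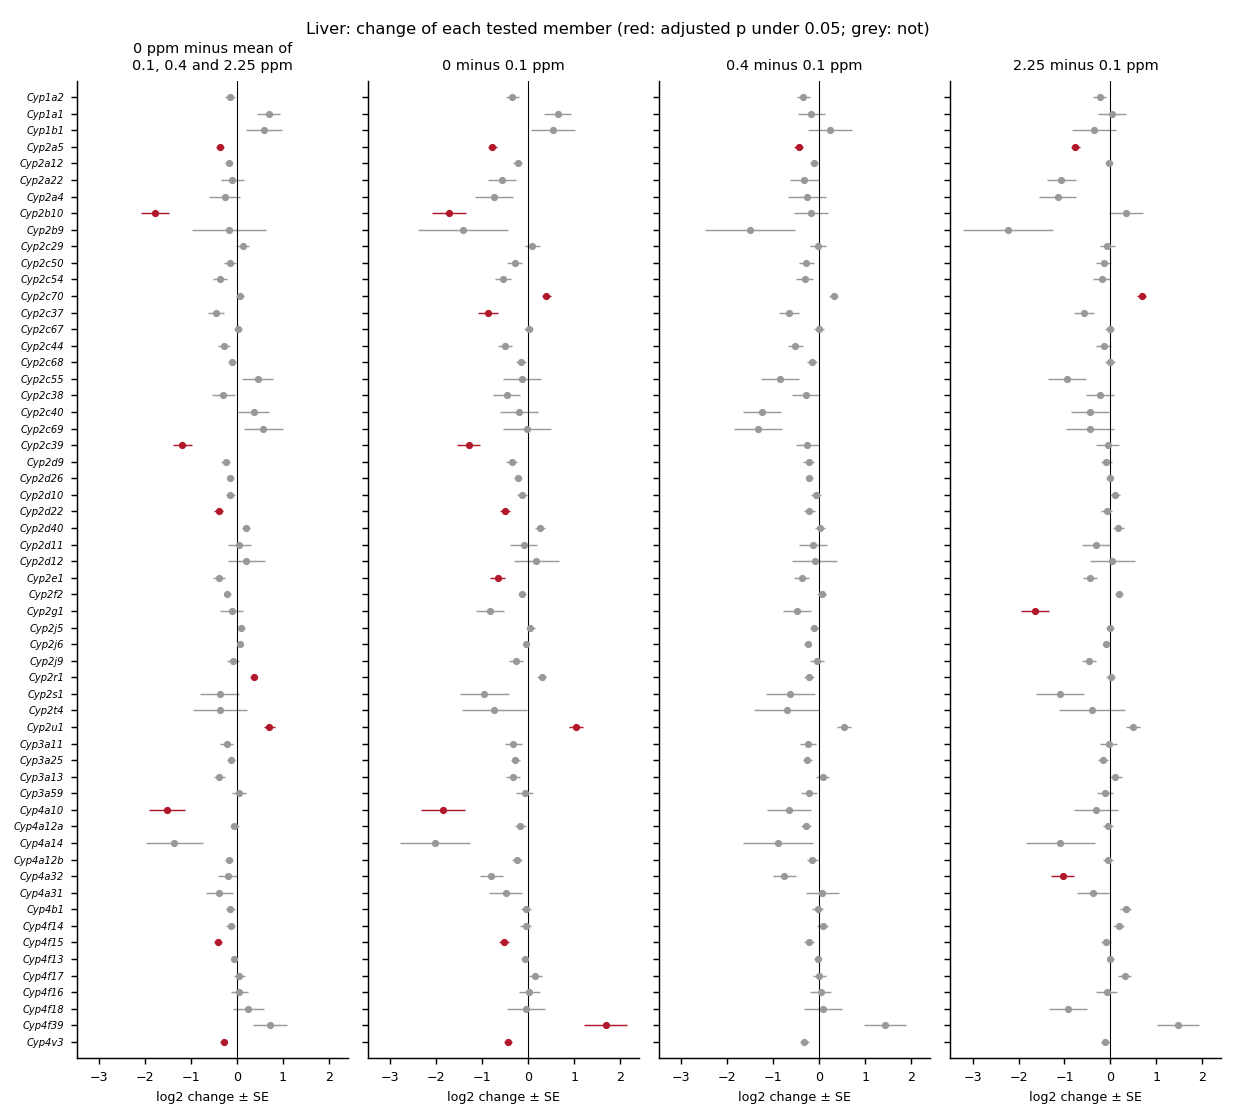
Log2 change with its SE for each of the 58 members tested in liver, in the 4 contrasts named above the panels, by subfamily, with calls at an adjusted p under 0.05 in red. Calls are mainly to the left of 0 in the 0 ppm contrasts, 7 of 9 and 9 of 12, and the 0.1 ppm libraries enter every contrast.

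By diet mean, 36 of the 58 members tested were highest at 0.1 ppm, where this held for 28.3% of all genes tested, and 27 were lowest at 0 ppm, against 27.9% of all genes. Against 0.1 ppm, 45 members lay on the lower side at 0 ppm, 47 at 0.4 ppm and 44 at 2.25 ppm, called or not, with 51.0%, 52.0% and 50.1% of all genes on that side. These 3 counts share the 0.1 ppm libraries. The summed reads of the 61 members were 534142, 627825 and 477207 at 0 ppm, 621200.0, 728329 and 756547 at 0.1 ppm, 589759, 589486 and 574395 at 0.4 ppm and 638396, 617685 and 596032 at 2.25 ppm, so 0 ppm libraries a and c lay below the other 10 and library b lay among them. Summed hepatocyte markers ran at 1085460.0 to 1380200.0 in the 0 ppm livers, against 1480800.0 to 1938750.0 at the other diets, and summed periportal markers at 126058 to 129420.0 at 0.1 ppm with 59833 to 129420.0 over all 12 livers. Of the 7 hepatocyte markers Cps1 and Ass1 passed the test at 0 ppm against the mean of the other diets, both lower. Over all genes, 2.2% rose and 4.41% fell in this contrast. Summed markers of liver endothelium ran at 3493 to 3749 at 0 ppm, against 4091 to 4836 at the other diets, with no overlap. Of these 6 genes 0 rose and 2 fell, Flt1 and Stab2. Those of cholangiocytes ran at 1338 to 1915 at 0 ppm, against 709.7 to 1335 at the other diets, with no overlap. Of these 5 genes 1 rose, Spp1, and 0 fell. The 0 ppm livers thus stood below all others for summed hepatocyte and endothelial markers. For summed cholangiocyte markers they stood above them only narrowly, with 1338 in 0 ppm a against 1335 in 2.25 ppm a. Alb, which was not called, made up most of the hepatocyte sum, a mean of 962716 of 1263350 at 0 ppm. The part of such shifts in the members' results was not tested.

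The Cyp2b subfamily, the classic target of the receptor CAR, gave the largest decrease among the calls at 0 ppm against the mean of the other diets. Cyp2b10 (chromosome 7 from 25897620 to 25926624, plus strand, coordinates of mm10 throughout) had 1469, 3363 and 831 normalized reads in the 0 ppm livers, against 3501, 5426 and 7884 at 0.1 ppm, 4461, 4723 and 4929 at 0.4 ppm and 8065, 6254 and 6019 at 2.25 ppm. All 3 libraries without selenium lay below the other 9, although 0 ppm b and 0.1 ppm a were close. The log2 change against the mean of the other diets was -1.78 (SE 0.31, adjusted p = 0.00333) and held in all 21 alternatives run. Its neighbour Cyp2b9, a gene normally higher in females, had 0 to 25 reads across the 12 livers and gave a log2 difference of -0.17 (SE 0.80, adjusted p = 0.947), without a call.

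In the Cyp2a subfamily, Cyp2a5, which hydroxylates coumarin and nicotine in mouse, was highest at 0.1 ppm. It (chromosome 7 from 26835305 to 26843548, plus strand) had 17296, 18458 and 17599 at 0 ppm, 27068, 31223 and 33673 at 0.1 ppm, 23096, 20730.5 and 23359.7 at 0.4 ppm and 17183, 17164 and 19707 at 2.25 ppm. The 0.1 ppm livers lay above all others, with no overlap, and the 0 and 2.25 ppm livers overlapped. Cyp2a5 fell in each comparison with 0.1 ppm, with log2 changes of -0.78 (SE 0.10, adjusted p = 0.000563) at 0 ppm, -0.45 (SE 0.10, adjusted p = 0.0413) at 0.4 ppm and -0.76 (SE 0.10, adjusted p = 0.000671) at 2.25 ppm. The first and last of these calls held in all 21 alternatives each, while that at 0.4 ppm was lost in 9 of 21. Against the mean of the other diets the change at 0 ppm was -0.38 (SE 0.08, adjusted p = 0.013).

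Cyp2a4, a testosterone hydroxylase higher in females, matched Cyp2a5 at 98.45% of the coding bases and had nearly the same promoter (printed above), yet averaged 5.44 normalized reads per kilobase, against 11035 for Cyp2a5. At such identity the split of reads between them is uncertain. Their sum gave -0.78 at 0 minus 0.1 ppm (adjusted p = 0.000555, limma), as Cyp2a5 alone did. With means of 9.45 normalized reads for Cyp2a4 and 22213 for Cyp2a5, the sum could hardly differ from Cyp2a5. It therefore says nothing about Cyp2a4 or about the split of reads. Cyp2a12, a steroid hydroxylase, had 9988 to 13157 reads at 0 ppm, against 11847 to 13641 at the other diets, and did not pass at a log2 change of -0.18 (SE 0.08, adjusted p = 0.198), nor did its near-identical copy Cyp2a22.

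The Cyp2c subfamily has 13 members, all on chromosome 19. Several of them are CAR and PXR targets and epoxygenases of arachidonic acid, and its members moved both ways. Cyp2c39, which oxidizes retinoic acid in mouse, had 35.4, 21.3 and 26.1 reads at 0 ppm, against 48.9, 75 and 85.1 at 0.1 ppm, 50.6, 55.1 and 65.1 at 0.4 ppm and 58.3, 56.8 and 82.5 at 2.25 ppm. The 0 ppm livers were below all 9 others, and the log2 change of -1.19 (SE 0.21, adjusted p = 0.00412) held in all 21 alternatives, at a low level of the gene. Cyp2c37 had 6861, 7968 and 4392 reads at 0 ppm, against 7802, 13288 and 14139 at 0.1 ppm, and the groups overlapped. It fell by 0.87 on the log2 scale (SE 0.22, adjusted p = 0.0318) against 0.1 ppm, lost in 7 of 21 alternatives, and stood at 7166 to 7240.5 at 0.4 ppm and 6413 to 8457 at 2.25 ppm. Cyp2c37, Cyp2c50 and Cyp2c54 share 95.1 to 96.12% of their coding bases, so reads may be split among them. Their sum gave a log2 difference of -0.46 (SE 0.18, adjusted p = 0.164, limma) at 0 minus 0.1 ppm, without a call. Cyp2c37 held a mean of 8260 of the 46625 normalized reads in the sum, so the sum does not test the call for Cyp2c37.

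Cyp2c70, the enzyme that gives mice their muricholic bile acids, was lowest at 0.1 ppm. It (chromosome 19 from 40153353 to 40187333, minus strand) had 9581, 9425 and 11094 at 0 ppm, 7092, 7872 and 7969 at 0.1 ppm, 10174, 8293 and 10047 at 0.4 ppm and 11535, 12984 and 12181 at 2.25 ppm. The 0.1 ppm libraries lay below all 9 others and the 2.25 ppm libraries above them all. Cyp2c70 rose by a log2 of 0.68 (SE 0.10, adjusted p = 0.0011) at 2.25 minus 0.1 ppm, in all 22 alternatives, and by a log2 of 0.39 (SE 0.10, adjusted p = 0.0294) at 0 minus 0.1 ppm, lost in 7 of 22. With means of 12234 ± 726 at 2.25 ppm and 7644 ± 481 at 0.1 ppm (SD, n = 3 each), the ratio was 1.6.

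The most abundant member of the Cyp2c subfamily did not pass in any contrast. Cyp2c29 had 91378, 90287 and 57172 at 0 ppm, 68795, 76813 and 74554 at 0.1 ppm, 71882, 73165 and 70205 at 0.4 ppm and 80429, 66126 and 64004 at 2.25 ppm, and library c without selenium was below all others while a and b were above them. Its log2 change at 0 ppm was 0.12 (SE 0.14, adjusted p = 0.693). Cyp2c55, an inducible fatty acid hydroxylase, had 841, 1528 and 338 at 0 ppm, against 315 to 1122 at the other diets, with library b alone above them, and was called at 0 ppm only when library c was left out (adjusted p = 0.0281, against 0.511 with all libraries). A list drawn up for arachidonate epoxygenases had 8 genes tested (Cyp2c29, Cyp2c38, Cyp2c44, Cyp2c50, Cyp2c54, Cyp2j5, Cyp2j6 and Cyp2j9). At 0 ppm against the mean of the other diets 0 were called by limma, 2 at an unadjusted p under 0.05 and 0 by edgeR. Over all 18945 genes tested by limma, 1252 were called and 3833 had an unadjusted p under 0.05. By edgeR 1509 of 13355 genes were called. Of the 12 listed CAR and PXR targets tested, 0 rose and 2 fell at 0 ppm against the mean of the other diets, Cyp2b10 and Cyp2a5, with a median log2 change of -0.26. Over all genes, 2.2% rose and 4.41% fell.

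Family 3, the drug-oxidizing enzymes that PXR controls, gave no call. Cyp3a11 had 87689, 105607 and 60694 at 0 ppm, 90332, 108562 and 111933 at 0.1 ppm, 88339.5, 90242 and 83401 at 0.4 ppm and 110813, 94705 and 95836 at 2.25 ppm. As for Cyp2c29, 0 ppm library c was the lowest of all 12 and the groups overlapped, with a change of -0.23 (SE 0.14, adjusted p = 0.428). Cyp3a13 had 4042, 2877 and 4788 reads at 0 ppm, against 4492 to 5654 at the other diets, and gave a log2 difference of -0.39 (SE 0.12, adjusted p = 0.0755). The near-identical pair Cyp3a25 and Cyp3a59, with 97.48% of coding bases shared, gave a log2 difference of -0.13 as a sum (adjusted p = 0.478, limma).

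Of the 3 genes under the aryl hydrocarbon receptor, 0 were called at 0 ppm against the mean of the other diets by limma, 1 at an unadjusted p under 0.05 and 1 by edgeR. Over all 18945 genes tested by limma, 1252 were called and 3833 had an unadjusted p under 0.05. By edgeR 1509 of 13355 genes were called. Cyp1a2, which oxidizes caffeine and aromatic amines, had 11200.4, 14172 and 9058 at 0 ppm, 12131, 15716 and 15620.0 at 0.1 ppm, 12385, 11308 and 10296 at 0.4 ppm and 12114, 12457 and 12168 at 2.25 ppm, with the groups overlapping. Cyp1a1, the most inducible AHR target, had 20.8, 36.3 and 27.5 reads at 0 ppm, against 12.8 to 21.3 at the other diets, and gave a log2 difference of 0.69 (SE 0.24, adjusted p = 0.118). Only 0 ppm a lay within the range of the other diets, and edgeR on the recovered reads gave an adjusted p of 0.0424 for Cyp1a1. Cyp1b1, an estrogen-metabolizing member, had 3.55 to 21.3 reads in the 12 livers.

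Cyp2e1, the most abundant member, had 93016, 119534 and 136365 at 0 ppm, 162745, 190505 and 194314 at 0.1 ppm, 142688, 142195 and 133439 at 0.4 ppm and 132085, 140325 and 129661 at 2.25 ppm. The 0 ppm livers lay below the 0.1 ppm livers without overlap, and the 0.4 and 2.25 ppm livers lay between them apart from an overlap with 0 ppm c. The log2 change of -0.66 (SE 0.16, adjusted p = 0.0232) against 0.1 ppm was lost in 5 of 22 alternatives, and the change against the mean of the other diets was -0.39 (SE 0.13, adjusted p = 0.0916). Cyp2e1 is made by hepatocytes around the central vein. Of the 7 listed markers of those cells tested, Cyp2e1 included, 0 rose and 2 fell at 0 minus 0.1 ppm, Cyp2e1 and Slc1a2. Over all genes, 1.82% rose and 4.31% fell in this contrast. Against the mean of the other diets 1 rose, Lgr5, and 0 fell, where 2.2% of all genes rose and 4.41% fell. The part of such cells in the Cyp2e1 result was not tested.

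In the Cyp4a subfamily, the omega-hydroxylases of fatty acids that PPAR alpha controls, the 0 ppm libraries differed widely among themselves. Cyp4a10 (chromosome 4 from 115518264 to 115533649, plus strand) had 4366, 8772 and 1527 reads at 0 ppm, against 9016, 16008 and 18975 at 0.1 ppm, 8202, 9197 and 9258 at 0.4 ppm and 6916, 16669 and 12400.3 at 2.25 ppm. Library c was the lowest of the 12 and library b overlapped the 0.4 and 2.25 ppm livers. Against the mean of the other diets Cyp4a10 fell by 1.53 on the log2 scale (SE 0.39, adjusted p = 0.0332). The call was lost in 11 of 20 alternatives, edgeR included (adjusted p = 0.0763). Cyp4a14 spread further, with 3927, 6678 and 435 at 0 ppm, against 4467, 11289.6 and 15499.7 at 0.1 ppm. It did not pass at 0 minus 0.1 ppm, with a log2 change of -2.03 (SE 0.76, adjusted p = 0.146), a contrast other than that given for Cyp4a10.

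Cyp4a32 had 454, 717 and 585 reads at 2.25 ppm, against 1011, 1204 and 1348 at 0.1 ppm, with no overlap. It fell by 1.03 on the log2 scale (SE 0.25, adjusted p = 0.0227) in that comparison, lost in 6 of 21 alternatives. Cyp4a10, Cyp4a31 and Cyp4a32 share 96.01 to 97.18% of their coding bases, so reads may be split among them. Their sum fell by 1.69 on the log2 scale (SE 0.44, adjusted p = 0.038, limma) at 0 minus 0.1 ppm. At 2.25 minus 0.1 ppm it gave a log2 difference of -0.36 (SE 0.44, adjusted p = 0.713, limma), without a call. Cyp4a10 held a mean of 10109 of the 11176 normalized reads in the sum, and Cyp4a32 held 797. The sum thus mainly follows Cyp4a10 and does not test the call for Cyp4a32. The male-biased pair Cyp4a12a and Cyp4a12b, fatty acid hydroxylases that share 98.49% of their coding bases, gave a log2 difference of -0.09 as a sum at 0 ppm (adjusted p = 0.658, limma). Ppara itself had 1815 to 2243 reads at 0 ppm, against 2533 to 2909.6 at 0.1 ppm and 1631 to 2204 at 2.25 ppm.

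The Cyp4f and Cyp4v genes encode other fatty acid hydroxylases, those of Cyp4f acting also on leukotrienes. Cyp4f15 had 2332, 2563 and 2259.9 reads at 0 ppm, against 3138, 3254 and 3872 at 0.1 ppm, 2832, 2655 and 3247 at 0.4 ppm and 3398, 3500.2 and 2776 at 2.25 ppm. The 0 ppm livers were below all 9 others, and Cyp4f15 fell by 0.41 on the log2 scale (SE 0.09, adjusted p = 0.0132), lost without 0 ppm a and with no mean-variance trend. Cyp4v3, whose human counterpart CYP4V2 handles fatty acids in the retina, had 7008, 8152 and 6382 at 0 ppm, 8940.2, 10018 and 10126 at 0.1 ppm, 7346, 8287 and 7479 at 0.4 ppm and 9614, 8831 and 8447 at 2.25 ppm. Its log2 change of -0.44 (SE 0.10, adjusted p = 0.0159) against 0.1 ppm came with no overlap between these 2 diets, and that against the mean of the other diets, -0.29 (SE 0.08, adjusted p = 0.0423), was lost in 11 of 21 alternatives.

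Cyp4f14, the most abundant of its subfamily in liver, had 4319, 5195 and 3671 at 0 ppm, 4403, 4414 and 4754 at 0.1 ppm, 4782, 4650.3 and 4871 at 0.4 ppm and 6064, 4467 and 4986 at 2.25 ppm, with overlap throughout and no call. Cyp4f39, whose human counterpart CYP4F22 makes skin lipids, was at a few reads in liver: 16.6, 6.25 and 8.24 at 0 ppm, against 1.4, 2.78 and 2.93 at 0.1 ppm. Since 3 reads of a liver library are worth 3.12 to 5.32 normalized reads, the 0.1 ppm values were at the edge of detection, and the rise of 1.68 (SE 0.46, adjusted p = 0.0459) was lost in 15 of 21 alternatives. Cyp4b1, a fatty acid hydroxylase better known from lung, had 350.4 to 435 reads at 0 ppm, against 356 to 603 at the other diets, without a call.

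The members that rose at 0 ppm against the mean of the other diets, Cyp2u1 and Cyp2r1, are each the only member of their subfamily. Cyp2u1, a fatty acid hydroxylase (chromosome 3 from 131288441 to 131303227), had 524, 573 and 347 reads at 0 ppm, against 257, 221 and 205 at 0.1 ppm, 343, 326 and 319.9 at 0.4 ppm and 313, 316 and 336 at 2.25 ppm. All 0 ppm livers stood above the other 9, with library c only just above 0.4 ppm a, and the rise of 0.70 (SE 0.12, adjusted p = 0.00399) held in all 21 alternatives. Cyp2r1, the vitamin D 25-hydroxylase (chromosome 7 from 114549682 to 114562972), had 383, 355 and 382 reads at 0 ppm, against 309, 322 and 285 at 0.1 ppm, 257, 256 and 269.8 at 0.4 ppm and 314, 269.7 and 339 at 2.25 ppm. It rose by a log2 of 0.36 (SE 0.08, adjusted p = 0.0167), a ratio of means of 1.28, again with no overlap. The call was lost in 2 of 21 alternatives, without 0 ppm a (adjusted p = 0.0943) and with no mean-variance trend (adjusted p = 0.0513).

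Cyp2g1, known as a P450 of the olfactory lining, was at a low level in liver: 49.9, 43.8 and 41.2 at 0 ppm, 78.3, 77.7 and 85.1 at 0.1 ppm, 67.5, 64 and 43.4 at 0.4 ppm and 14.2, 26.6 and 40.5 at 2.25 ppm. The 2.25 ppm livers were below the 0.1 ppm livers with no overlap, and Cyp2g1 fell by 1.65 on the log2 scale (SE 0.31, adjusted p = 0.00501), lost in 1 of 22 alternatives. Cyp2f2, which activates naphthalene in the mouse lung and is also a liver enzyme, had 21564, 23752 and 18905 at 0 ppm, 22142, 23684 and 24469 at 0.1 ppm, 24586, 22815 and 25267 at 0.4 ppm and 27168, 26629 and 26038 at 2.25 ppm, and no contrast passed. Cyp2s1 had 2.75 to 15.3 reads in the 12 livers and Cyp2t4 had 0 to 9.79, near the 3.12 to 5.32 normalized reads that 3 reads of a liver library are worth.

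Of the 7 Cyp2d and 3 Cyp2j members tested in liver, Cyp2d22 alone was called. Cyp2d22, regarded as a mouse counterpart of the human drug enzyme CYP2D6, had 4060.3, 4848 and 3535 reads at 0 ppm, against 4943, 6154 and 6523 at 0.1 ppm, 5055, 5305 and 4725 at 0.4 ppm and 5633, 5723 and 5173 at 2.25 ppm. It fell by 0.40 on the log2 scale (SE 0.10, adjusted p = 0.0218), although 0 ppm b overlapped the 0.4 ppm livers. Cyp2d9, the most abundant Cyp2d member, had 27737, 35024 and 24906 at 0 ppm, 33276, 39236 and 39077 at 0.1 ppm, 30327, 32671 and 31759 at 0.4 ppm and 35876, 35932 and 32791 at 2.25 ppm, with overlap and no call. Cyp2j5, the leading epoxygenase of its subfamily, had 13289, 15319.9 and 11552 at 0 ppm, 12824, 12418 and 13398 at 0.1 ppm, 12057, 11784 and 12033 at 0.4 ppm and 13292, 12260.5 and 12742 at 2.25 ppm, likewise with overlap. Of the 7 male-biased members listed (Cyp2d9, Cyp2d40, Cyp2d11, Cyp4a12a, Cyp4a12b, Cyp2u1 and Cyp2c70), 1 rose and 0 fell at 0 ppm against the mean of the other diets. Of the 9 female-biased ones tested 0 rose and 3 fell, Cyp2b10, Cyp2c39 and Cyp4a10. In this contrast 2.2% of all genes rose and 4.41% fell. By edgeR, 1 male-biased and 2 female-biased members were called, where 1509 of all 13355 genes tested were. Stat5a and Cux2, regulators of sex-biased liver genes, had 255 to 334 and 1.25 to 7.28 reads at 0 ppm, against 174 to 289 and 5.69 to 36.1 at the other diets.

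**Figure D3:**
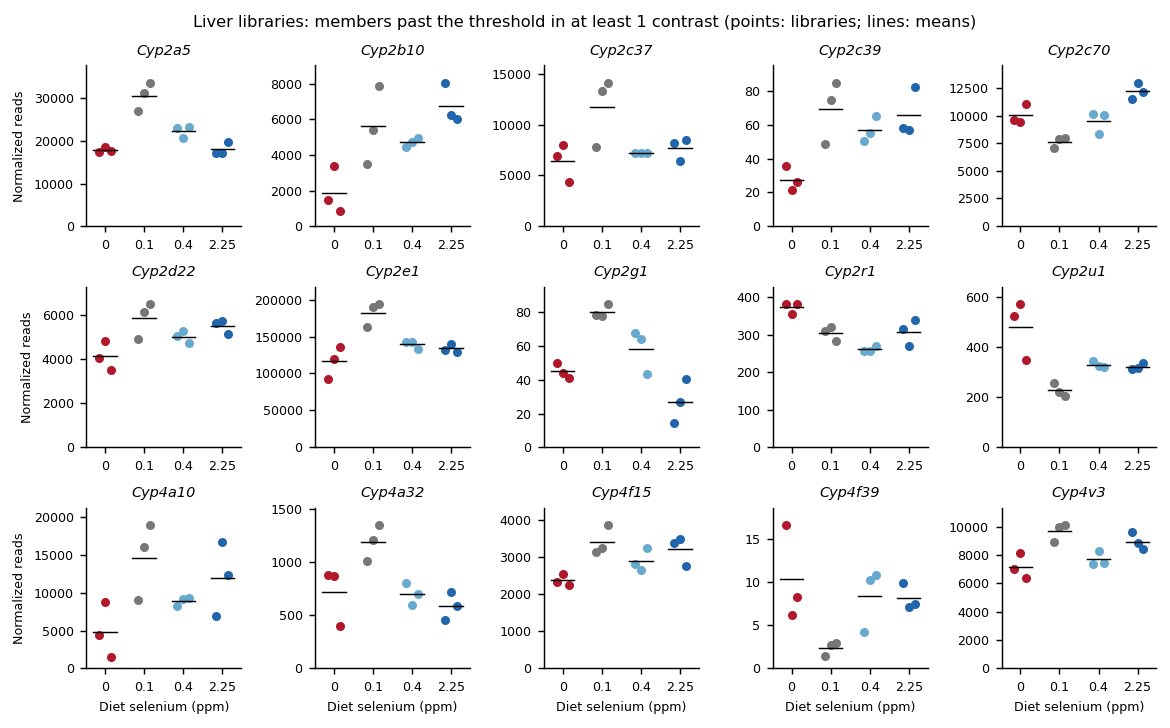
Normalized reads of the 15 members past the threshold in at least 1 liver contrast, by diet, with points for the 3 libraries of a diet, lines for their means and each axis starting at 0. Cyp2b10, Cyp2c39 and Cyp4f15 have all 0 ppm points below the others, Cyp2u1 and Cyp2r1 above them, Cyp2a5 is highest at 0.1 ppm, and Cyp2c70 is highest at 2.25 ppm.

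At the higher diets fewer members were called. At 0.4 minus 0.1 ppm, 1 of 58 members passed, Cyp2a5, where 1.49% of all genes were called, 0.549% higher and 0.94% lower, and 20 members had all 0.4 ppm livers below all 0.1 ppm livers, a separation shown by 12.3% of all genes. The call was lost without 0.1 ppm b or c, any of the 0.4 ppm libraries, or 2.25 ppm a or b, and the count was 2 without 0 ppm b, 2 without 2.25 ppm c and 3 without 0 ppm c. Over all genes, 377 of 18831 were called without 0 ppm b, and the calls without those other libraries are not given here. The median log2 change was -0.22 over the members and -0.012 over all genes. At 2.25 minus 0.1 ppm, 4 members passed, Cyp2c70 higher and Cyp2a5, Cyp2g1 and Cyp4a32 lower, where 7.85% of all genes were called, 4.23% higher and 3.62% lower. Without 0 ppm c 7 members passed, and the calls over all genes in that fit are not given here. No member was called both at 0 ppm against the mean of the other diets and at 2.25 minus 0.1 ppm except Cyp2a5.

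Of 14 listed electron donors and heme enzymes, 1 rose and 1 fell at 0 ppm against the mean of the other diets, Cyb5b and Por. Over all genes, 2.2% rose and 4.41% fell. The list's median log2 change was -0.029, against -0.000135 over all genes tested. Por, the reductase that hands electrons to microsomal P450 enzymes, had 5747, 5541 and 9625 reads at 0 ppm, against 15784, 20644 and 22799 at 0.1 ppm, 17712, 18208 and 15726 at 0.4 ppm and 12912, 16234 and 11902 at 2.25 ppm. It fell by 1.30 on the log2 scale (SE 0.16, adjusted p = 0.000336), with no overlap. Cyb5b, a cytochrome b5 of the outer mitochondrial membrane, rose by a log2 of 0.45 (SE 0.10, adjusted p = 0.012). Alas1, the first enzyme of heme synthesis, had 13932, 8764 and 24456 reads at 0 ppm, against 16222 to 30261 at the other diets, and did not pass, its log2 change being -0.61 (SE 0.22, adjusted p = 0.118).

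Of 20 listed receptors and regulators, 1 rose and 4 fell at 0 ppm against the mean of the other diets. Over all genes, 2.2% rose and 4.41% fell. Nr1i3, which encodes CAR, had 651, 1039 and 938 reads at 0 ppm, with values from 1129 to 1871 with a median of 1430.2 in the 9 other livers, and fell by 0.79 on the log2 scale (SE 0.13, adjusted p = 0.00316). Nr1i2, which encodes PXR, had 1422, 1496 and 1123 reads at 0 ppm, with values from 1443 to 2808 with a median of 2045 in the 9 other livers, and fell by 0.58 on the log2 scale (SE 0.12, adjusted p = 0.00799). CAR transcripts were thus separated between 0 ppm and the rest, while those of PXR overlapped. Ahr had 751 to 1317 reads at 0 ppm, 1710.2 to 1967 at 0.1 ppm, 919 to 1119 at 0.4 ppm and 921 to 1215 at 2.25 ppm, highest at 0.1 ppm. Of 7 clock output factors, 1 rose and 1 fell at 0 ppm, Nr1d1 and Tef, with log2 changes of 1.96 and -0.69 (adjusted p = 0.000246 and 0.0449, limma). Tef, a factor that binds the D-box, had 1834, 1885 and 4365 reads at 0 ppm, against 3267 to 4673 at the other diets, with library c within their range and a and b below it.

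**Figure D4:**
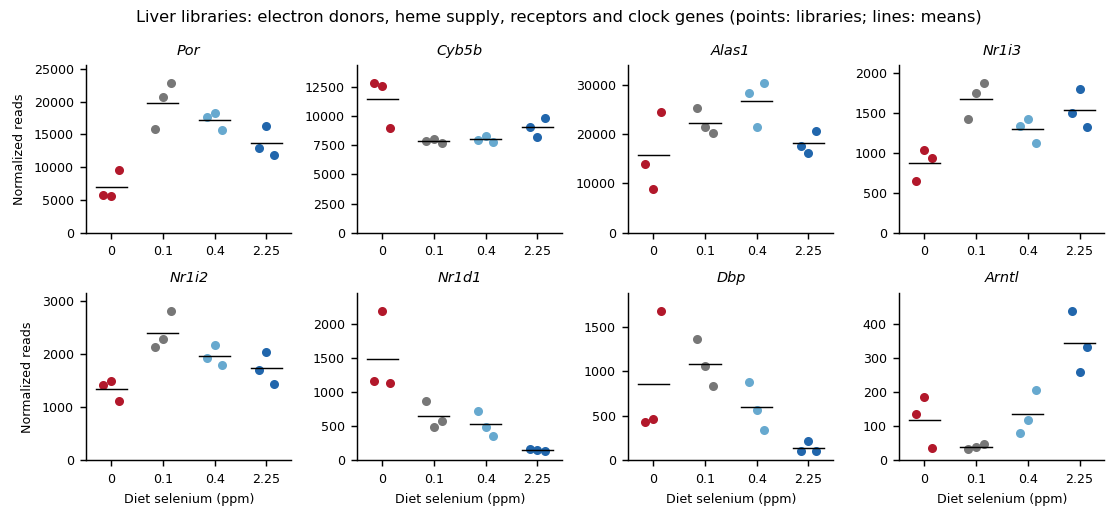
Normalized reads in liver, by diet, of Por, Cyb5b and Alas1 (electron donors and heme supply), Nr1i3 and Nr1i2 (the receptors CAR and PXR) and the clock genes Nr1d1, Dbp and Arntl, with points for libraries and lines for means. All 0 ppm points of Por and Nr1i3 lie below those of the other diets, Nr1d1 is highest at 0 ppm, and Arntl is highest at 2.25 ppm.

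Of 16 tested P450 genes of other families, 1 rose and 4 fell at 0 ppm, where 2.2% of all genes rose and 4.41% fell. Cyp7a1, which starts bile acid synthesis, had 2529, 3202 and 6159 reads at 0 ppm, with values from 5955 to 14989 with a median of 10697 at the other diets, and fell by 1.48 on the log2 scale (SE 0.28, adjusted p = 0.00569). Cyp51, a cholesterol synthesis enzyme, rose by a log2 of 0.45 (SE 0.12, adjusted p = 0.0369), and Cyp39a1 and Cyp27a1, further enzymes of bile acid synthesis, fell, with log2 changes of -0.90 (SE 0.15, adjusted p = 0.00284) and -0.40 (SE 0.08, adjusted p = 0.00873). The fourth that fell was Cyp26b1, a retinoic acid hydroxylase, with 242, 8.76 and 13.7 reads at 0 ppm, against 84.5 to 466 at the other diets, and a log2 change of -3.00 (SE 0.72, adjusted p = 0.0236).

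In brain no member was called between diets. Of 33 members tested, 0 were called in each of the 5 comparisons by limma, where 0.0189% of all genes were called for any difference, 0.0189% at 0 ppm against the mean of the other diets, 0.0284% at 0 minus 0.1 ppm, 0.00947% at 0.4 minus 0.1 ppm and 0.435% at 2.25 minus 0.1 ppm. At an unadjusted p under 0.05 the counts were 6, 6, 2, 6 and 7, where that held for 9.46%, 5.55%, 6.95%, 8.08% and 13% of all genes, and edgeR called 0 in each. Cyp2d22, the member with most reads, had 377, 368 and 428 at 0 ppm, 450.4, 407 and 385 at 0.1 ppm, 454, 484 and 393 at 0.4 ppm and 425, 367 and 406 at 2.25 ppm. Cyp2j9 had 360.2, 343 and 404 at 0 ppm, 288, 326 and 340.4 at 0.1 ppm, 349, 352 and 314 at 0.4 ppm and 397, 305 and 321 at 2.25 ppm. Cyp2d22 overlapped between all diets, while the 0 ppm brains lay above the 0.1 ppm brains for Cyp2j9, a difference that did not pass (log2 change 0.22, adjusted p = 0.73, limma).

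Among the fatty acid hydroxylases of brain, Cyp4x1 had 217, 238 and 203 at 0 ppm, 246, 241 and 199.7 at 0.1 ppm, 199, 167 and 192 at 0.4 ppm and 193, 216 and 163 at 2.25 ppm. Cyp4f15 had 143, 103 and 136 at 0 ppm, 139, 157 and 127 at 0.1 ppm, 145, 157 and 173 at 0.4 ppm and 157, 202 and 152 at 2.25 ppm. Cyp4f13 had 142, 97.2 and 128 at 0 ppm, 157, 164 and 168 at 0.1 ppm, 170.2, 126 and 150.0 at 0.4 ppm and 116, 98.7 and 101 at 2.25 ppm. Cyp4x1 at 0 and at 0.1 ppm lay above 0.4 ppm, and Cyp4f15 at 0 ppm below 0.4 and 2.25 ppm. For Cyp4x1 at 0.1 ppm the gap was under 1 read, 199.74 in 0.1 ppm c against 199.37 in 0.4 ppm a. Comparisons of 0 with 0.4 or 2.25 ppm alone were not tested, and the share of all brain genes so separated is not given here. Cyp4f13 at 2.25 ppm lay below 0.1 ppm, and overlapped 0 ppm, its log2 change against 0.1 ppm being -0.62 (SE 0.14, adjusted p = 0.0784). Cyp4v3 had 60.4 to 97.2 reads and Cyp2u1 65.6 to 92.7 over the 12 brains. Cyp4x1os had at most 10.3 reads, and since the use of strand in counting is not given in the sources used here, its reads and those of Cyp4x1 cannot be told apart where the genes overlap.

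Of the remaining members of brain, Cyp2s1 had 92.7, 87.4 and 92.6 at 0 ppm, 66.6, 101 and 80.1 at 0.1 ppm, 109.5, 113 and 99.2 at 0.4 ppm and 99.8, 79.7 and 119 at 2.25 ppm. Cyp1b1 had 68.4, 61.8 and 58.2 at 0 ppm, 54.9, 54.4 and 57.5 at 0.1 ppm, 81.8, 69.5 and 89.1 at 0.4 ppm and 63.6, 76.2 and 48.2 at 2.25 ppm. Cyp2s1 at 0.4 ppm lay above 0 ppm, and Cyp1b1 at 0.4 ppm lay above both 0 and 0.1 ppm. Neither member was called in a contrast that was run, and 0.4 against 0 ppm was not tested. Cyp3a13, a steroid and drug oxidase, had 31.2, 26.4 and 22.5 at 0 ppm, 40.5, 43.3 and 35 at 0.1 ppm, 60.6, 52.6 and 43 at 0.4 ppm and 34.7, 32.4 and 26.6 at 2.25 ppm. Cyp3a13 gave a log2 difference of -0.57 (SE 0.15, adjusted p = 0.649) at 0 ppm, with 0 ppm library a overlapping the 2.25 ppm libraries. Cyp2t4 had 17.5 to 27.5 and Cyp2r1 2.92 to 15.6 reads.

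Members that are abundant in liver had few reads in brain libraries. For Cyp3a11 and for a sum of members these were lowest where albumin was low. Cyp3a11 had 7.6, 3.01 and 3.31 reads at 0 ppm and 4.81, 3.51 and 3.89 at 0.1 ppm, then 4.38, 0 and 0.781 at 0.4 ppm and 0, 0 and 0 at 2.25 ppm. The 40 members at the minimum in liver only summed to 41.8, 36.2 and 33.8 at 0 ppm, 31.6, 36.8 and 53.6 at 0.1 ppm, 30.7, 14.7 and 12.5 at 0.4 ppm and 14.5, 17.6 and 6.47 at 2.25 ppm. The brain means were 2.77 reads per 100000 liver reads for Cyp3a11, 3.2 for Cyp2c29 and 2.84 for Cyp2d9, with albumin at 2.8. On this scale the sum of the 40 members stood at 6.63 and Apoa1, another listed hepatocyte marker, at 5.48. Cyp2e1 stood at 5.2, Cyp2a5 at 20.9 and Cyp2f2 at 61.6. Apoa1 did not follow albumin in every brain library, with 6.47 reads in 2.25 ppm c, where albumin was at 0, and 4.66 in 0.1 ppm c. The source of these reads was not tested.

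Cyp2f2 in brain was high in 2 libraries, with 63.8, 5.27 and 9.26 at 0 ppm, 8.93, 42.1 and 5.44 at 0.1 ppm, 6.57, 5.62 and 5.47 at 0.4 ppm and 13, 7.76 and 3.59 at 2.25 ppm. These libraries, 0 ppm a and 0.1 ppm b, were also those with pituitary transcripts: the 4 pituitary markers summed to 88933 and 52786 there, against 17.4 to 549 in the other 10. Cyp2a5 in brain was instead highest in 0.1 ppm c, at 20.2 against 0.719 to 8.77 elsewhere, and so was the olfactory Cyp2g1, at 9.33. Without the 2 pituitary-rich libraries no brain member was called either, in an alternative added after the data were seen.

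**Figure D5:**
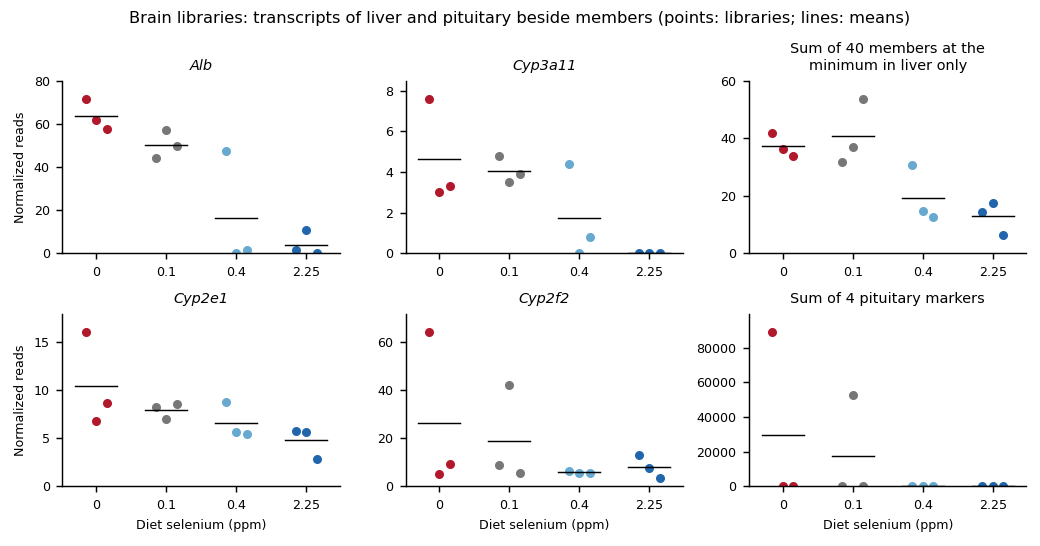
Normalized reads in the 12 brain libraries, by diet, of Alb, of Cyp3a11, of the sum of the 40 members at the minimum in liver only, of Cyp2e1, of Cyp2f2 and of the sum of 4 pituitary markers, with points for libraries and lines for means. Alb and Cyp3a11 are near 0 in the same 5 libraries, and Cyp2f2 is high in the 2 libraries with pituitary markers.

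Set against each other, the 0 ppm contrast differed between liver and brain for 2 of 30 members tested, where 2.52% of all 18186 genes were called. For Cyp2u1 the liver contrast was 0.70 and the brain contrast -0.0032, a difference of 0.71 (SE 0.18, adjusted p = 0.0393). Its brain libraries had 68.4, 89.7 and 80.7 at 0 ppm, 74.2, 80.1 and 70.7 at 0.1 ppm, 80.3, 92.7 and 78.1 at 0.4 ppm and 86.8, 65.6 and 89.1 at 2.25 ppm, with all diets overlapping. For Cyp2e1 the liver contrast was -0.39 and the brain contrast 0.59, a difference of -0.98 (SE 0.26, adjusted p = 0.0465). Within each tissue that contrast was not called by limma (adjusted p = 0.0916 in liver and 0.896 in brain). Its brain libraries had only 16, 6.78 and 8.6 at 0 ppm, 8.24, 7.01 and 8.55 at 0.1 ppm, 8.76, 5.62 and 5.47 at 0.4 ppm and 5.78, 5.64 and 2.87 at 2.25 ppm, with the highest value in a pituitary-rich library and lower values in those with little albumin, and the part of such RNA in the difference was not tested. Neither difference was called without the 2 pituitary-rich brain libraries. The count was also 0 without brain 0 ppm a, brain 0.1 ppm a or b, liver 0 ppm a or b, liver 0.1 ppm b or c, liver 0.4 ppm b or c, or liver 2.25 ppm a or b, 1 without another 7 libraries each, and 5 without brain 0.4 ppm a. For this test the calls over all genes with a library left out are not given here.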

How the data were processed

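RNA of liver and whole brain was extracted with TRIzol and made into stranded total-RNA libraries, per the labels' protocols. Per the submitters' processing notes the tools were RSEM 1.3.0, STAR 2.5.2b, Trimmomatic 0.33, bcl2fastq 2.17 and limma 3.34.5, with roles not given, and the build was mm10, and whether counting used strand is not given in the sources used here. The deposited values, called normalized reads, are a signal: the authors divided each library's gene counts by 1 factor, since multiplying by it returned 525456 of 525456 values as whole reads within 0.01.

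Values were tested as log2(value + 1) with limma 3.58.1 in R 4.3.3 (moderated with a mean-variance trend), in 1 fit per tissue of 12 libraries, over genes at 1 or more in at least 3 of them. The threshold was 0.05 on Benjamini-Hochberg p-values adjusted over every gene tested. Fold changes are on that log scale, which understates those of low genes. The 24 pairs of libraries within groups differed at 4.01 to 56.5 chi-square per gene (genes of 20 or more reads), so each counted as a replicate. Alternatives changed the filter, pseudocount, scaling, moderation, threshold, libraries and near-identical copies, or used edgeR 4.0.16 on the recovered reads. Near-identical meant at least 95% of coding bases in GENCODE M21, in place of the protein identity first planned, and the pseudogenes were put back in an alternative chosen after seeing the data. Scripts were tested on simulated data.

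Members named are the highest of each subfamily and tissue, those called and those of the lists. Members and gene lists were chosen with earlier results of these data known. Cyp2c44 is Cyp2c23 in GENCODE M21. Promoters are from RefSeq, which matched 48 of 61 members.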

Additional observations from a re-analysis of the deposited data

Results flagged for a closer look

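For 2 members the change at 0 ppm against the mean of the other diets differed between liver and brain by a test of that difference, the tissue term of limma over all 24 libraries. Cyp2e1 differed by -0.98 (SE 0.26, adjusted p = 0.0465) on the log2 scale and Cyp2u1 by 0.71 (SE 0.18, adjusted p = 0.0393), higher in liver. For Cyp2e1 the change within each tissue was not called by limma, at -0.39 in liver (adjusted p = 0.0916) and 0.59 in brain (adjusted p = 0.896). Without the brain libraries 0 ppm a and 0.1 ppm b, which held pituitary markers, the differences were -0.63 for Cyp2e1 (adjusted p = 0.239) and 0.59 for Cyp2u1 (adjusted p = 0.184), in an alternative chosen after seeing the data. Brain Cyp2e1 was at 2.87 to 16 normalized reads, where 3 reads of a brain library are worth 1.75 to 2.34.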

How the results depend on the processing

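No paired analysis was possible because the columns of the table carry no replicate numbers. No called member changed direction under any alternative run. Without the mean-variance trend the liver counts were 3 for any difference, 3 at 0 ppm against the mean of the other diets, 4 at 0 minus 0.1 ppm and 0 at 0.4 minus 0.1 ppm. Over all 18945 genes the calls then numbered 583, 488, 404 and 41. With only the libraries of the groups compared, 1 member was called at 0 minus 0.1 ppm and 0 at 0.4 minus 0.1 ppm. Of all 18945 genes, 216 and 189 were called in these fits. At an adjusted p under 0.1 the liver counts were 16 for any difference, 2 at 0.4 minus 0.1 ppm and 8 at 2.25 minus 0.1 ppm. Over all 18945 genes these calls numbered 3249, 632 and 2297. The same threshold gave 3 members at 2.25 minus 0.1 ppm in brain and 4 for liver minus brain. That last count, 2 as reported, was 5 with no filter, 1 with a pseudocount of 0.1, 1 with robust moderation, 0 with quantile scaling, 0 without the trend and 0 without the 2 brain libraries that held pituitary markers. The calls over all genes for these brain and liver minus brain counts are not given here. These counts therefore cannot be set against a share of all genes.

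Leaving out 1 library at a time gave 7 to 17 members for any difference (17 without 0 ppm b), 3 to 14 at 0 ppm against the mean of the other diets, 3 to 21 at 0 minus 0.1 ppm, 0 to 3 at 0.4 minus 0.1 ppm and 3 to 7 at 2.25 minus 0.1 ppm in liver (7 without 0 ppm c). In brain it gave 0 to 1 at 2.25 minus 0.1 ppm (1 without 0 ppm b or 0.4 ppm a) and 0 in the other 4 comparisons, and for liver minus brain 0 to 5 (5 without brain 0.4 ppm a). For any difference in liver, 7 members were called without 0 ppm a, 17 without 0 ppm b and 12 without 0 ppm c. Over all genes these calls numbered 1483 of 18820, 1926 of 18831 and 2504 of 18846. Calls over all genes for the other ranges are given above only in part or not at all. The cause of these shifts was not tested. With 3 libraries per group, and 3 reads worth up to 5.32 normalized reads in liver, depth limits what can be said of members at a few reads.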
